A study of Mus musculus with 20 samples.

Results

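The response of macrophages to LPS and IFNγ was divided by its dependence on inducible nitric oxide synthase (iNOS, encoded by Nos2), the enzyme that makes nitric oxide (NO) in these cells. For each gene, the log2 fold change on stimulation in iNOS KO cells minus that in wildtype cells, here called the interaction, was tested. Of 56748 genes listed, the 18691 with at least 10 counts in total entered the test. A gene was called induced or repressed only with iNOS when the wildtype response was called (log2 fold change beyond 1 in either direction, adjusted p under 0.05), the KO response was not, and the adjusted p of the interaction was under 0.05. The classes only without iNOS were defined with the genotypes exchanged, and genes called in the same direction in both genotypes formed the shared classes.

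The 4 groups were wildtype at rest, wildtype stimulated, iNOS KO at rest and iNOS KO stimulated, with 3 libraries each, labelled A to C. Stimulation was with 50 ng/mL LPS and 30 ng/mL IFNγ for 48 h, and the resting groups received neither. The labels describe bone marrow-derived macrophages (BMDM) grown from bone marrow of C57BL/6J mice of 6 to 12 weeks, of either sex, and kept with 20 ng/mL M-CSF. The methods of the study name B6.129P2-Nos2tm1Lau/J as the iNOS KO mouse and state that marrow was pooled by genotype. In the same methods the RNA of the iNOS experiment is said to come from RAW264.7 cells, a mouse macrophage-like line, and the source could not be settled. Levels in the libraries bear on it. Mki67, a marker of dividing cells, was at 555, 569 and 489 CPM in resting wildtype libraries. In resting iNOS KO libraries it was at 648, 522 and 616 CPM. The study describes BMDMs as non-proliferating whatever their genotype or stimulation, and these levels do not match that description. RAW264.7 proliferation is described there as inhibited by NO made on stimulation. For stimulated iNOS KO against wildtype RAW264.7 cells, the study lists top genes that changed significantly and alike in protein and RNA. By RNA it ranks Pbk, Pclaf, Rrm2, Kntc1 and Kif4 in this order among the higher ones, with Plk1 just before Kif4. The same comparison of RNA here gave 7.66, 6.92, 6.24, 6.14 and 6.11 on the log2 scale. Ube2c, which that list does not hold, was at 7.785. Bnip3, Pfkfb3 and Map4k3, ranked in this order among the lower ones with other genes between them, were at -2.799, -2.495 and -1.997. Whether that ranking used these libraries was not tested. Groups were taken from the labels. No source names separate animals or cultures for the libraries beyond the word replicate, so p-values measure the spread between these libraries, which may be technical.

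LPS is sensed by TLR4 and IFNγ by its own receptor, and together they switch on inflammatory and interferon-stimulated genes through NF-kB and IRF factors. Nos2 is one of those genes, and its product turns arginine into NO over the following hours. NO reacts with haem, iron-sulfur clusters and thiols, and is known to inhibit respiration and ribonucleotide reductase and to affect the oxygen sensors that control HIF.

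The libraries held between 15072109 and 18878107 counts on genes. The summed level of 10 macrophage markers lay between 5890 and 13600 CPM, with the largest part from Lyz2, at 3230 to 7360 CPM. Some markers were low at rest, where Aif1 was at 1.09 to 3.35 CPM and Fcgr1 at 4.15 to 8.1 CPM. Mertk, a receptor of mature macrophages, was at most 0.352 CPM at rest. Summed markers of B cells, erythroid cells and mast cells reached at most 1.45 CPM and those of T cells at most 8.71 CPM, mostly from Lck. The neutrophil sum was between 1.61 and 5.93 CPM at rest and between 37.5 and 64.7 CPM after stimulation, mostly from S100a8, in both genotypes, while Ly6g had no count. Among the 8 fibroblast markers the sum was 11.5 to 17.1 CPM in stimulated iNOS KO libraries and 3.78 to 5.13 CPM in stimulated wildtype libraries. It came mostly from Dcn, and the collagen genes Col1a1, Col1a2 and Col3a1 were at or near 0, and the part of these cells in the results was not tested. Replicate B of the stimulated iNOS KO group stood apart. Its chi-square per gene against the other libraries of its group was 28.8 and 36.8, where the other pairs within groups lay between 2.65 and 7.74. Without it, 7473 interactions were called in place of 6617, and 769 of 824, 202 of 231, 1431 of 1485 and 218 of 278 members stayed in the classes induced only with, induced only without, repressed only with and repressed only without iNOS.

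Nos2 itself checks the labels. At rest it was at 1.25, 1.45 and 1.53 CPM in wildtype libraries and at 0 in each iNOS KO library. After stimulation it reached 10400, 11500 and 11300 CPM in wildtype and 870, 891 and 912 CPM in iNOS KO libraries. The KO libraries thus held reads of the gene, at a level that did not overlap with wildtype, and these counts do not say whether they encode a working enzyme. The increase was at least 6070-fold in the KO. The fitted interaction of Nos2 rests on a resting group without a count and is not read here.

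The response differed between the genotypes in a large share of genes. If the cells came from marrow pooled by genotype, the allele and the pool or stock of mice cannot be told apart. If they were RAW264.7 cells, the allele and the knockout line cannot be told apart. The interaction was called in 6617 genes (35.4% of those tested), with a response that was higher without iNOS in 3732 (20.0%) and lower in 2885 (15.4%). This excess of higher responses was not kept with upper quartile scaling, which gave 3339 higher and 3381 lower. The interaction exceeded 1 on the log2 scale in 2809 genes (15.0%). In wildtype cells 3684 genes were called higher (19.7%) and 2927 lower (15.7%), and in iNOS KO cells 2616 were called higher (14.0%) and 1642 lower (8.78%). Across genes the responses of the genotypes had a Pearson r of 0.72, and the median ratio of KO to wildtype log2 response was 0.69 for genes called higher in wildtype and 0.36 for genes called lower. Genes are not independent replicates, and both responses come from libraries of their own.

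Among the classes, 824 genes were induced only with iNOS (4.41%) and 231 only without (1.24%). Repression was called only with iNOS in 1485 genes (7.95%) and only without in 278 (1.49%). With upper quartile scaling these 4 counts were 916, 193, 1376 and 370, so that which direction was divided more unequally depended on the scaling. In both genotypes 2016 genes were induced (10.8%) and 937 repressed (5.01%). The median log2 response of the genes repressed only with iNOS was -1.62 in wildtype and -0.37 in iNOS KO cells, and that of the genes induced only with iNOS was 1.48 and 0.39. These values follow from the class limits. In 861 of the 1485 and 380 of the 824 genes the response without iNOS also lay within 0.5 of 0. At the limit, Mrps31 at -1.003 was the member of the repressed class nearest to it and R3hcc1 at -0.999 lay just outside, while Pi4k2a at 1.001 and Dcstamp at 0.999 lay on either side for induction. A further 2075 genes were called in 1 genotype with no called difference, and they were placed in no class.

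**Figure D1:**
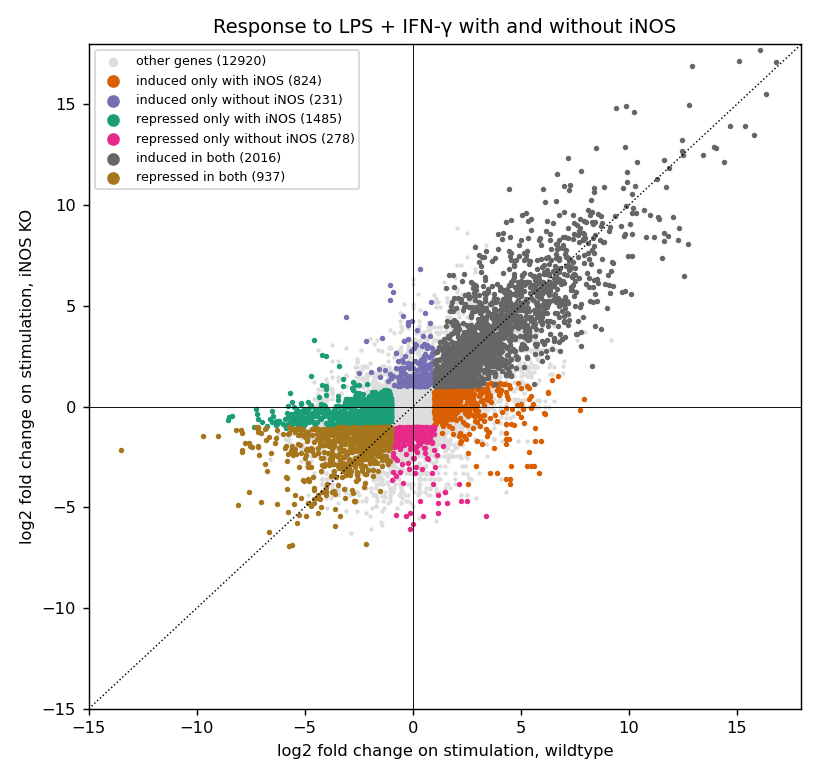
Log2 fold change on stimulation in wildtype cells (horizontal axis) and in iNOS KO cells (vertical axis) for 18691 genes, with 1 point per gene, the number of genes per class in the key and a dotted line where the responses are equal. The 1485 genes repressed only with iNOS spread to the left along the horizontal zero line, and the 2016 genes induced in both follow the dotted line.

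The genes repressed only with iNOS included many genes of proliferation. As given above, the high level of such genes at rest does not match the study's description of BMDMs, so that these results are tied to the open question of the source. Of the 32 genes of DNA replication tested, 31 had a higher response without iNOS, 0 had a lower one, and 27 were repressed only with iNOS. Over all genes tested 20.0% had a higher and 15.4% a lower response, and 7.95% were repressed only with iNOS. The median log2 response of the replication genes was -4.01 in wildtype and -0.12 in iNOS KO cells, beside 0.07 and 0.00 over all genes tested. All 32 genes of mitosis and the spindle had a higher response without iNOS, with medians of -5.55 and -1.02. There the KO response was not absent, since 17 of the 32 were called lower in both genotypes, beside 5.01% of all genes. Without replicate B of the stimulated iNOS KO group the counts were again 31 and 32.

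Ube2c, the ubiquitin-conjugating enzyme of the anaphase-promoting complex, had the largest interaction of the class among the genes of the naming rule. It was at 147, 143 and 153 CPM in resting wildtype libraries and at 0.139, 0.540 and 0.485 CPM after stimulation. In iNOS KO libraries it went from 136, 140 and 133 CPM to 86.3, 90.9 and 85.2 CPM. The stimulated groups did not overlap, and the interaction was 7.90 ± 0.18 (SE, adjusted p = 1.53e-14). Rrm2, the small subunit of ribonucleotide reductase, which makes the deoxyribonucleotides for DNA synthesis, was at 237, 238 and 257 CPM at rest and 2.77, 2.70 and 2.50 CPM after stimulation in wildtype. In iNOS KO libraries it was at 241, 232 and 237 CPM at rest and at 208, 199 and 196 CPM after stimulation. Resting levels overlapped between the genotypes, and the interaction was 6.28 ± 0.11 (adjusted p = 6.78e-16). Pclaf, a partner of PCNA, had an interaction of 6.86 ± 0.23. That of Kif18b, a mitotic kinesin, was 6.35 ± 0.23. Kntc1, a kinetochore protein, and Kif4, a chromokinesin, had interactions of 6.21 ± 0.23 and 6.03 ± 0.33.

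The steps of replication were affected alike in direction. In the origin-licensing helicase the interaction was 4.87 for Mcm5 and 5.30 for Mcm6, and in its activators it was 5.81 for Mcm10 and 4.80 for Cdc45. Mcm10 was at 71.6, 61.9 and 69.7 CPM in resting and 1.80, 1.22 and 1.25 CPM in stimulated wildtype libraries, and at 80.5, 82.1 and 66.5 CPM in stimulated iNOS KO libraries. Pcna, the sliding clamp of the polymerases, was the exception in the list, with log2 responses of 0.53 and 0.47 and an interaction of -0.06 ± 0.09 (adjusted p = 0.678). The mitotic cyclin genes Ccnb1 and Ccna2 had interactions of 5.65 ± 0.12 and 7.05 ± 0.14. Ccna2 was called lower in both genotypes, at -8.20 and -1.16. Cenpf, a kinetochore protein, had no count in any stimulated wildtype library and fell at least 413-fold there, from 82.7, 92.7 and 79.9 CPM. In stimulated iNOS KO libraries it was at 27.4, 12.3 and 26.2 CPM. Pimreg and Pbk, a mitotic regulator and a mitotic kinase, also fell to 3 counts or fewer in wildtype, by at least 313-fold and 367-fold, and their KO responses were -1.44 and -1.48.

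Promoters of 4 genes named for their interactions are shown, as the 250 bases before the RefSeq start in GRCm38.p6. Ube2c is a member of the mitosis list and Bnip3 of the hypoxia list, whose members mostly moved together, and Pclaf and Klf4 belong to neither and are shown for their interactions alone. Capitals in Ube2c and Pclaf mark the NF-Y box CCAAT and the CHR element TTTGAA, and in Bnip3 and Klf4, which are described further on, the HIF core ACGTG, each on either strand. Ube2c lies at chr2:164769679-164769928 (+), Pclaf at chr9:65890073-65890322 (+), Bnip3 at chr7:138909507-138909756 (-) and Klf4 at chr4:55532476-55532725 (-).
Ube2c: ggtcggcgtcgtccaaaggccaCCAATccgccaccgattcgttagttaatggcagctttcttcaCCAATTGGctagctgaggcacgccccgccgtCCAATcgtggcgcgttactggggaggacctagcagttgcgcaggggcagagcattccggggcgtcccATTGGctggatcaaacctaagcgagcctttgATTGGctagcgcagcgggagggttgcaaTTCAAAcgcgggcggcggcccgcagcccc
Pclaf: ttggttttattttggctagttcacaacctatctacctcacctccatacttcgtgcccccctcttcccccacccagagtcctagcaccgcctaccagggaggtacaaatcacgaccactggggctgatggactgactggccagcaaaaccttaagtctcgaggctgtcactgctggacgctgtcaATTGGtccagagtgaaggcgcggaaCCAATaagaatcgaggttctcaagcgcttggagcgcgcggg
Bnip3: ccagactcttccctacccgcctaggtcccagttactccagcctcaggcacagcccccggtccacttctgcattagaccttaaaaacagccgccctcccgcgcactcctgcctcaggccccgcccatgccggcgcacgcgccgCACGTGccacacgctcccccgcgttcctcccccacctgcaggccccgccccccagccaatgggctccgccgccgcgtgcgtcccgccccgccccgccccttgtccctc
Klf4: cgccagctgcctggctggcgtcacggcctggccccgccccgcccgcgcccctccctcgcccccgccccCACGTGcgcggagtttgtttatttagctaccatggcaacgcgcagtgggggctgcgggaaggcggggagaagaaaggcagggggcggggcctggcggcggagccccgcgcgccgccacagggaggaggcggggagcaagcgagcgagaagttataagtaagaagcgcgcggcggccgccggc
Ube2c held CCAAT 6 times, with a pair of matches sharing letters, and TTTGAA 1 time, and Pclaf held CCAAT 2 times. In Bnip3 and in Klf4 the 2 matches of ACGTG are the strands of a single palindrome. Promoters were found for 26 of 32 genes of the mitosis list and 80.8% of these held CCAAT, beside 65.4% of the 26 matched replication genes and 40.6% of the 10447 protein-coding genes tested that were matched. The CCAAT share was 46.0% in the genes repressed only with iNOS, 45.3% in those repressed only without and 46.3% in those repressed in both, so that these classes were alike. TTTGAA was held by 38.5% of the mitosis genes, 15.4% of the replication genes, 14.1% of the genes repressed only with iNOS and 13.4% of the protein-coding genes. The E2F site TTTCCCGC was held by 11.5% of the replication genes, by none of the 26 mitosis genes, by 4.0% of the 999 matched genes repressed only with iNOS and by 1.93% of the protein-coding genes. ACGTG was held by 69.2% of 26 matched hypoxia genes, by 24.9% of the 542 matched genes induced only with iNOS and by 24.6% of the protein-coding genes, so that the class as a whole was at the level of all genes. Its share was 28.2% in the genes repressed only with iNOS, 28.5% in those repressed only without and 34.6% in the mitosis list. A match is a description of letters and not a bound site.

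Sterol and lipid synthesis genes behaved in the same direction as the proliferation genes. Of 27 genes tested, 26 had a higher response without iNOS, beside 20.0% of all genes, and 18 were repressed only with iNOS, beside 7.95%. Median log2 responses were -1.85 and -0.56. Hmgcs1, an early enzyme of the mevalonate pathway, went from 94.8, 108 and 94.7 CPM to 23.6, 18.6 and 18.2 CPM in wildtype and from 99.7, 93.5 and 103 CPM to 70.1, 56.3 and 74.3 CPM in iNOS KO libraries. Its stimulated groups did not overlap (interaction 1.74 ± 0.16). Fdps, which makes farnesyl diphosphate, had the most positive interaction of the list, 3.91 ± 0.49, at a low level of 5.69 to 5.93 CPM in resting wildtype libraries. Mvd, an enzyme of the same route, responded by -0.57 and -0.56 and had an interaction of 0.00 ± 0.13.

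Ribosome biogenesis followed (medians -1.19 and -0.36). Of 30 genes, 26 had a higher and 0 a lower response without iNOS, beside 20.0% and 15.4% of all genes. Repression only with iNOS was called in 15, beside 7.95%. Dkc1, the pseudouridine synthase of small nucleolar particles, had the most positive interaction, 2.13 ± 0.20. Within the list of ATF4 and the integrated stress response, 11 of 27 genes had a higher and 6 a lower response without iNOS. The number of lower responses was near the share over all genes (15.4%). The serine and one-carbon enzymes Phgdh and Shmt2 were repressed only with iNOS, at -3.29 and -0.51 for Phgdh and at -3.68 and -0.56 for Shmt2, while the transcription factor gene Ddit3 was called higher in both genotypes (3.86 and 3.10, interaction -0.76).

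Among mitochondrial genes, those with a called interaction mostly had a higher response without iNOS, and many had none called. In the respiratory chain 27 of 48 genes had a higher response without iNOS, 0 a lower one and 21 no called difference, with medians of -0.40 and 0.09. Of the 48, 44 were called in neither genotype, beside 57.8% of all genes. Atp5g1, a subunit of the ATP synthase ring, had the most positive interaction (1.99 ± 0.20). Cox4i1, a subunit of cytochrome c oxidase, went from 371, 352 and 374 to 199, 238 and 242 CPM in wildtype and from 301, 313 and 305 to 417, 493 and 423 CPM in iNOS KO libraries. Its direction differed between the genotypes, although neither response passed the limit of 1 (interaction 1.23 ± 0.11). In the list of the TCA cycle and itaconate, 16 of 29 genes had a higher and 1 a lower response without iNOS. No difference was called in 12, and the shares over all genes were 20.0% higher and 15.4% lower. Idh2, the mitochondrial NADP-dependent isocitrate dehydrogenase, was called lower in both, at -3.12 and -1.37 (interaction 1.75 ± 0.12). Acod1, which makes itaconate, was called higher in both, at 6.11 and 6.60 (interaction 0.49 ± 0.07). Pdk2, a kinase that inhibits pyruvate dehydrogenase, was the gene with the lower response (-2.07 ± 0.49), at a level of at most 1.82 CPM.

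Most listed targets of hypoxia-inducible factor (HIF) had a lower response without iNOS, though they made up a small part of the genes induced only with iNOS. Of the 30 hypoxia genes tested, 21 had a lower response without iNOS and 2 a higher one, beside 15.4% and 20.0% of all genes. In the list 14 were induced only with iNOS, beside 4.41% of all genes, and the class held 824 genes in total. Median log2 responses were 1.82 in wildtype and 0.37 in iNOS KO cells, and 1.59 and 0.43 with genes at or under 3 counts set to their bound. Without replicate B of the stimulated iNOS KO group 23 were lower. Hif1a itself, whose protein is controlled by its stability, responded by 0.14 and -0.09, and its interaction of -0.23 was not called.

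Vegfa, the vascular growth factor, was at 27.5, 27.2 and 29.4 CPM in resting and 193, 195 and 204 CPM in stimulated wildtype libraries. In iNOS KO libraries it was at 36.4, 33.6 and 33.4 CPM at rest and 38.0, 36.1 and 38.8 CPM after stimulation. The KO response of 0.13 was within the limit of 1, and the interaction was -2.69 ± 0.10 (adjusted p = 2.3e-12). Bnip3, a receptor of mitophagy, went from 45.1, 48.6 and 46.8 to 274, 260 and 277 CPM in wildtype and from 40.0, 41.2 and 45.1 to 37.9, 37.3 and 41.3 CPM in the KO (interaction -2.65 ± 0.10). Pfkfb3, which makes the activator of phosphofructokinase, responded by 3.34 and 0.83 (interaction -2.51 ± 0.12). The glucose transporter Slc2a1 and hexokinase Hk2 kept part of their increase without iNOS, with log2 responses of 2.90 and 1.59 for Slc2a1 and 2.31 and 0.81 for Hk2. The lower glycolytic genes had smaller differences, -0.61 for Tpi1 and -0.56 for Ldha, and Aldoa had a higher response without iNOS (0.44). Gapdh is not read, since its level ranged from 28.1 to 234 CPM within the resting wildtype libraries alone and near-identical copies can share its reads.

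Klf4, a zinc-finger transcription factor, had the largest interaction of the class among the genes of the naming rule. It was at 9.22, 11.9 and 11.6 CPM in resting and 125, 124 and 137 CPM in stimulated wildtype libraries, and at 9.58, 10.2 and 9.95 and then 15.6, 15.3 and 13.2 CPM in iNOS KO libraries. The stimulated groups were far apart and the resting groups overlapped (interaction -3.00 ± 0.14, adjusted p = 7.82e-11). Map4k3, a kinase linked to nutrient sensing, and Napb, a protein of membrane fusion, had interactions of -2.41 ± 0.20 and -2.34 ± 0.27.

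**Figure D2:**
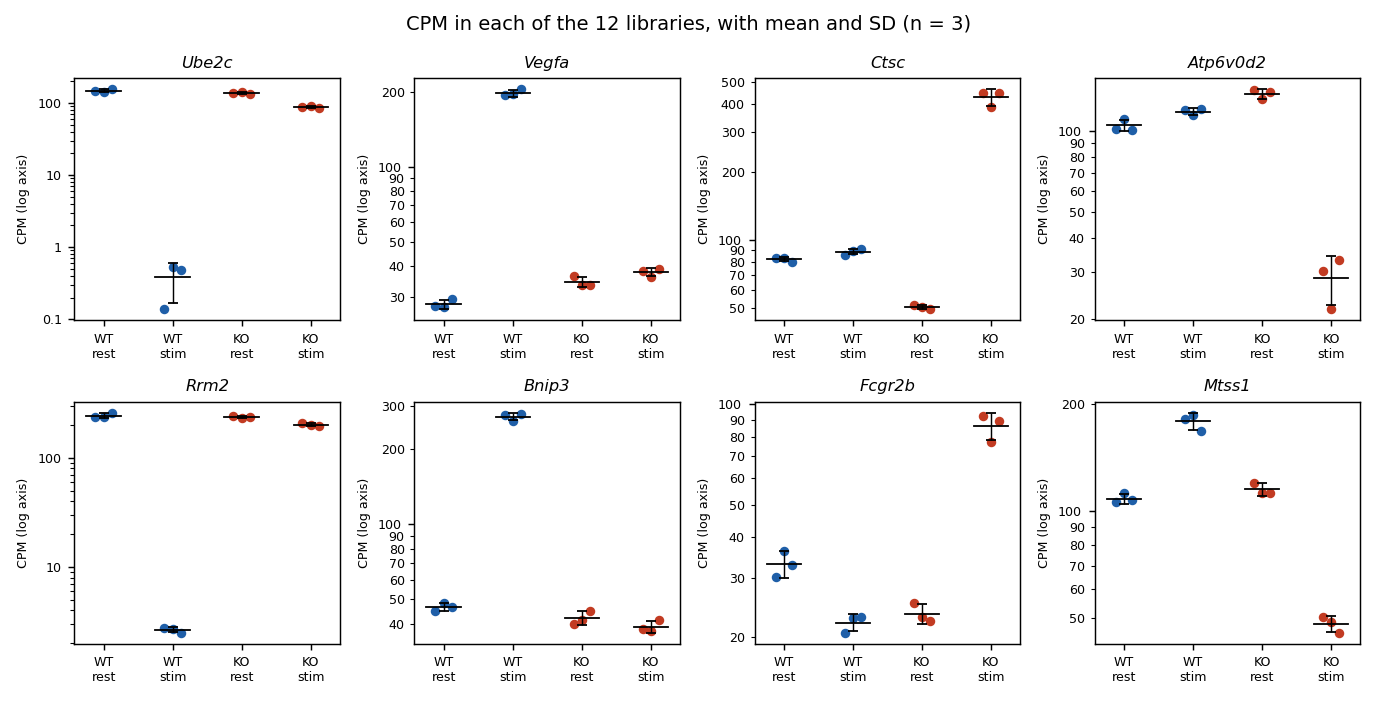
CPM (log axis, a scale of its own for each gene) of 8 genes in resting and stimulated wildtype (blue) and iNOS KO (red) libraries, with 1 point per library and bars for the mean ± SD of 3. Ube2c and Rrm2 fell with stimulation mainly in wildtype, Vegfa and Bnip3 rose in wildtype, Ctsc and Fcgr2b rose in iNOS KO, and Atp6v0d2 and Mtss1 fell in iNOS KO libraries.

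Of the NRF2 targets, which encode antioxidant and detoxifying enzymes, 11 of 24 had a lower and 5 a higher response without iNOS, and 3 were induced only with iNOS, beside 15.4% lower, 20.0% higher and 4.41% induced only with iNOS over all genes, so that the number of higher responses was near the share over all genes. Hmox1, haem oxygenase, rose in both genotypes, from 138, 146 and 146 to 3010, 3370 and 3270 CPM in wildtype and from 138, 134 and 141 to 1280, 1410 and 1250 CPM in iNOS KO libraries (interaction -1.23 ± 0.09). The part of the increase that remained without iNOS was large, and the stimulated groups did not overlap. Osgin1, an oxidative stress gene, was induced only with iNOS, at 1.51 and 0.01. Slc7a11, the cystine transporter, rose alike, at 2.40 and 2.46, and its interaction of 0.05 was not called. Among genes of the phagocyte oxidase and peroxide defence 12 of 20 had a higher and 3 a lower response without iNOS. The number of lower responses was near the share over all genes. Prdx4, a peroxiredoxin of the endoplasmic reticulum, led the higher ones, at -0.80 and 0.90 (interaction 1.70 ± 0.11). In the lysosome list 18 of 35 genes had a lower and 5 a higher response without iNOS, and the medians, 0.83 and 0.70, were close.

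The 231 genes induced only without iNOS included surface receptors and a lysosomal protease. Ctsc, a cathepsin that activates serine proteases, was at 83.0, 83.2 and 79.9 CPM in resting and 86.0, 89.3 and 90.9 CPM in stimulated wildtype libraries. In iNOS KO libraries it rose from 51.5, 50.5 and 49.4 to 449, 387 and 449 CPM. It was also lower in the KO at rest (-0.70), which is a smaller difference than its interaction of 2.97 ± 0.10 (adjusted p = 7.12e-13). Dusp2, a phosphatase of MAP kinases, responded by 0.05 and 2.93 (interaction 2.88 ± 0.14). Fcgr2b, the inhibitory Fc receptor, went from 30.4, 36.4 and 32.9 to 20.6, 22.8 and 23 CPM in wildtype and from 25.3, 22.9 and 22.4 to 92.2, 77.1 and 89.2 CPM in the KO (interaction 2.46 ± 0.13). C5ar1, the receptor of the complement fragment C5a, had an interaction of 2.37 ± 0.15. The interferon-responsive gene Ifi27l2a and the interferon-induced membrane protein gene Ifitm6 had interactions of 2.13 ± 0.19 and 2.08 ± 0.12. Ripk3, the kinase of necroptosis, responded by -0.65 and 1.14 (interaction 1.79 ± 0.13).

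In the list of macrophage lineage and scavenger receptor genes 13 of 31 had a higher and 6 a lower response without iNOS. The shares over all genes were 20.0% and 15.4%, so that the number of lower responses was near its share. The median responses of the list, 2.84 and 2.25, lay in the other order than the median interaction of 0.64, and were 1.57 and 2.16 with genes at or under 3 counts set to their bound. Fcgr1, the high-affinity Fc receptor, rose in both genotypes, from 7.93, 7.17 and 8.10 to 52.6, 61.2 and 59.3 CPM in wildtype and from 5.06, 4.23 and 4.15 to 201, 218 and 186 CPM in iNOS KO libraries. Stimulated KO libraries lay above all stimulated wildtype libraries (interaction 2.59 ± 0.14). The complement genes C1qa, C1qb and C1qc had interactions that were not called, and all rested on resting groups with few counts.

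The 278 genes repressed only without iNOS were led, by the naming rule, by Zfp469, a zinc-finger gene, at 11.6, 8.78 and 8.28 and then 10.3, 10.5 and 9.43 CPM in wildtype and at 27.8, 31.8 and 28.2 and then 4.56, 4.97 and 5.25 CPM in iNOS KO libraries. Part of its interaction of -2.64 ± 0.18 was already present at rest, where the KO was higher by 1.61 on the log2 scale. Atp6v0d2, a proton pump subunit of osteoclasts and some macrophages, was at 102, 111 and 101 and then 120, 115 and 121 CPM in wildtype and fell from 142, 131 and 139 to 30.1, 21.8 and 33.2 CPM in the KO (interaction -2.44 ± 0.15). Mtss1, a protein that bends membranes, and Slc37a2, a sugar phosphate carrier, responded by 0.72 and -1.26 and by 0.86 and -1.01. The interaction of Zfp292, a zinc-finger gene, was -1.83 ± 0.28 and that of Bcar1, an adhesion adaptor, -1.81 ± 0.19.

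Genes called in both genotypes included most of the interferon, cytokine and chemokine lists. All 38 interferon-stimulated genes were induced in both genotypes, beside 10.8% of all genes, with medians of 6.43 and 6.59. Of the 38, 9 had a higher and 9 a lower response without iNOS and 20 no called difference. Those numbers are near the shares over all genes (20.0% higher and 15.4% lower). Gbp4 and Gbp5, guanylate-binding GTPases of pathogen defence, and Iigp1, an immunity-related GTPase, had at most 3 counts in each resting library. They rose at least 10800-fold, 8900-fold and 13000-fold in wildtype and at least 10600-fold, 5710-fold and 7430-fold in iNOS KO cells, as did the serpin gene Serpina3f, at least 5150-fold and 6950-fold. Rsad2, an antiviral enzyme, had the most negative called interaction of the list (-2.11 ± 0.22), and Irf8, a macrophage transcription factor, went from 40.3, 40.5 and 39.6 to 406, 416 and 448 CPM in wildtype and from 29.1, 31.3 and 26.3 to 778, 908 and 851 CPM in iNOS KO libraries (1.47 ± 0.11).

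Of 24 cytokine genes 23 were induced in both genotypes, beside 10.8% of all genes. Of the 24, 7 had a higher and 3 a lower response without iNOS, again near the shares over all genes. Tnf went from 362, 371 and 382 to 4610, 4670 and 4090 CPM in wildtype and from 326, 327 and 320 to 1940, 2300 and 1660 CPM in iNOS KO libraries (interaction -0.98 ± 0.12). The increase of the anti-inflammatory gene Il10 was larger without iNOS, from 1.94, 2.17 and 2.00 to 6.72, 7.43 and 7.83 CPM in wildtype and from 3.37, 3.83 and 3.85 to 44.9, 46.7 and 50.1 CPM in the KO (1.83 ± 0.17). Il27, which shapes T cell responses, had an interaction of 2.95 ± 0.50. For Il6 stimulated levels were 31.9, 26.4 and 26.6 CPM in wildtype and 55.4, 32.7 and 69.4 CPM in iNOS KO libraries, and the interaction was not called (adjusted p = 0.183). Among 27 chemokine and chemokine receptor genes, 22 were induced in both, beside 10.8% of all genes. Of the 27, 8 were higher and 4 lower in response without iNOS, beside 20.0% and 15.4% of all genes. Ccl5, which attracts T cells and monocytes, was at 899, 983 and 1040 CPM in stimulated wildtype and 447, 502 and 506 CPM in stimulated iNOS KO libraries (-2.35 ± 0.21), with a resting level that was higher in the KO by 1.35.

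Within the shared classes, the interaction was called in 596 of the 2016 induced genes, beside 35.4% of all genes tested. The increase was larger without iNOS in 244 and smaller in 352, where 20.0% of all genes had a higher and 15.4% a lower response. In 1420 genes no difference was called, which does not show that they were equal. Mmp12, the macrophage elastase, had the most negative interaction by the naming rule, with 862, 781 and 887 CPM in stimulated wildtype and 14.8, 11 and 16.2 CPM in stimulated iNOS KO libraries (-3.74 ± 0.18). It was also lower at rest, at 14.1, 13.2 and 12.6 against 3.27, 2.84 and 2.78 CPM. Hbegf, an EGF-family growth factor, had an interaction of -3.21 ± 0.19. On the other side stood Siglec1, a sialic acid receptor of macrophages, with 45.2, 45.0 and 45.1 CPM in stimulated wildtype and 178, 195 and 167 CPM in stimulated iNOS KO libraries (3.47 ± 0.17), and Saa3, an acute-phase protein gene (3.46 ± 0.18). Both were lower in the KO at rest, by 1.47 and 2.70 on the log2 scale as fitted.

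Of the 937 genes repressed in both genotypes, the interaction was called in 337, near the share of 35.4% over all genes. The decrease was smaller without iNOS in 306 and larger in 31, where 20.0% of all genes had a higher and 15.4% a lower response. Cldn11, a claudin, responded by -3.79 and -3.46, and Gpr176, an orphan receptor, by -3.41 and -3.07. Ank, a pyrophosphate exporter, went from 911, 874 and 909 to 107, 122 and 116 CPM in wildtype and from 1450, 1550 and 1480 to 207, 246 and 222 CPM in iNOS KO libraries. Nfatc1, a transcription factor of osteoclasts, responded by -2.57 and -2.61. None of these 4 had a called difference in edgeR's test. Gpr183, an oxysterol receptor, fell more without iNOS (-0.75 ± 0.16), as did Ndrg2, a gene of the NDRG family (-0.82 ± 0.13).

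A group of 35 genes (0.187%) was called in opposite directions, with 19 lower in wildtype and higher in iNOS KO cells and 16 the other way. Cenpw, a kinetochore protein, went from 15.0, 15.0 and 14.9 to 2.42, 5.27 and 4.71 CPM in wildtype and from 16.3, 12.9 and 14.8 to 37.0, 30.6 and 36.2 CPM in iNOS KO libraries. Lyz1, a lysozyme, went from 1010, 1090 and 1090 to 485, 554 and 537 CPM and from 551, 577 and 585 to 1250, 1160 and 1210 CPM. Lyz1 is a near copy of Lyz2, so that reads could be split between them. Hyal1, a lysosomal hyaluronidase, rose in wildtype (1.07) and fell in the KO (-1.12).

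**Figure D3:**
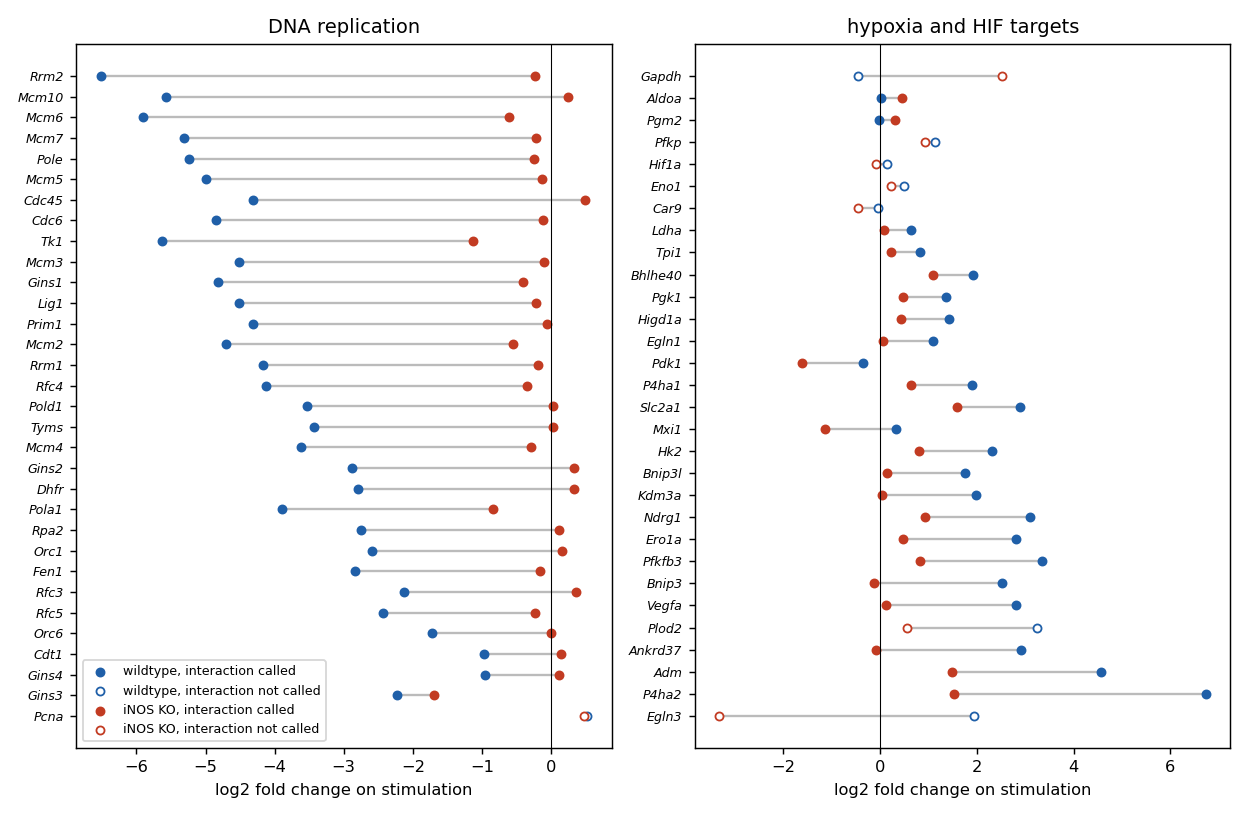
Log2 fold change on stimulation of each tested gene of DNA replication (left, 32 genes) and of the hypoxia list (right, 30 genes) in wildtype (blue) and iNOS KO (red) cells, ordered by the interaction, with filled points where the interaction was called. In the left panel 31 of 32 KO points lie to the right of the wildtype points, and in the right panel most KO points lie to the left.

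The remaining lists were mixed, and their counts stand beside 20.0% with a higher and 15.4% with a lower response over all genes. Over all genes 10.8% were induced in both genotypes and 1.24% only without iNOS. In the arginine and iNOS cofactor list 11 of 19 genes had a higher and 1 a lower response without iNOS. Ass1, which rebuilds arginine from citrulline, went from 3.14, 3.95 and 4.34 to 24.9, 38.2 and 39.2 CPM in wildtype and from 2.12, 2.09 and 2.00 to 67.2, 77.5 and 70.6 CPM in iNOS KO libraries (1.94 ± 0.25). The cofactor gene Gch1 rose by 1.51 and 2.28. Of 35 genes of NF-kB feedback and TLR signalling 24 were induced in both and 5 only without iNOS, with 12 higher and 6 lower in response. Of 18 MHC class II and co-stimulation genes 16 were induced in both, and Cd274, which encodes PD-L1, rose by 7.05 and 5.29 (interaction -1.76 ± 0.19). Among 24 inflammasome and cell death genes 4 had a higher and 9 a lower response without iNOS. Among 17 matrix protease genes 4 were higher and 6 lower, the median interaction was -0.63 (0.03 with genes at their bound) and the median responses 2.50 and 2.76, with Mmp9, a gelatinase, rising by 3.63 and 5.10. Of 25 cell cycle brakes and p53 targets 8 were higher, 9 lower and 8 not called. Cdkn1a, the p21 inhibitor of cyclin-dependent kinases, rose in both, from 165, 149 and 168 to 689, 745 and 793 CPM and from 174, 205 and 192 to 489, 593 and 511 CPM, while the apoptosis gene Bbc3 was repressed only with iNOS (-1.48 and 0.62).

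**Figure D4:**
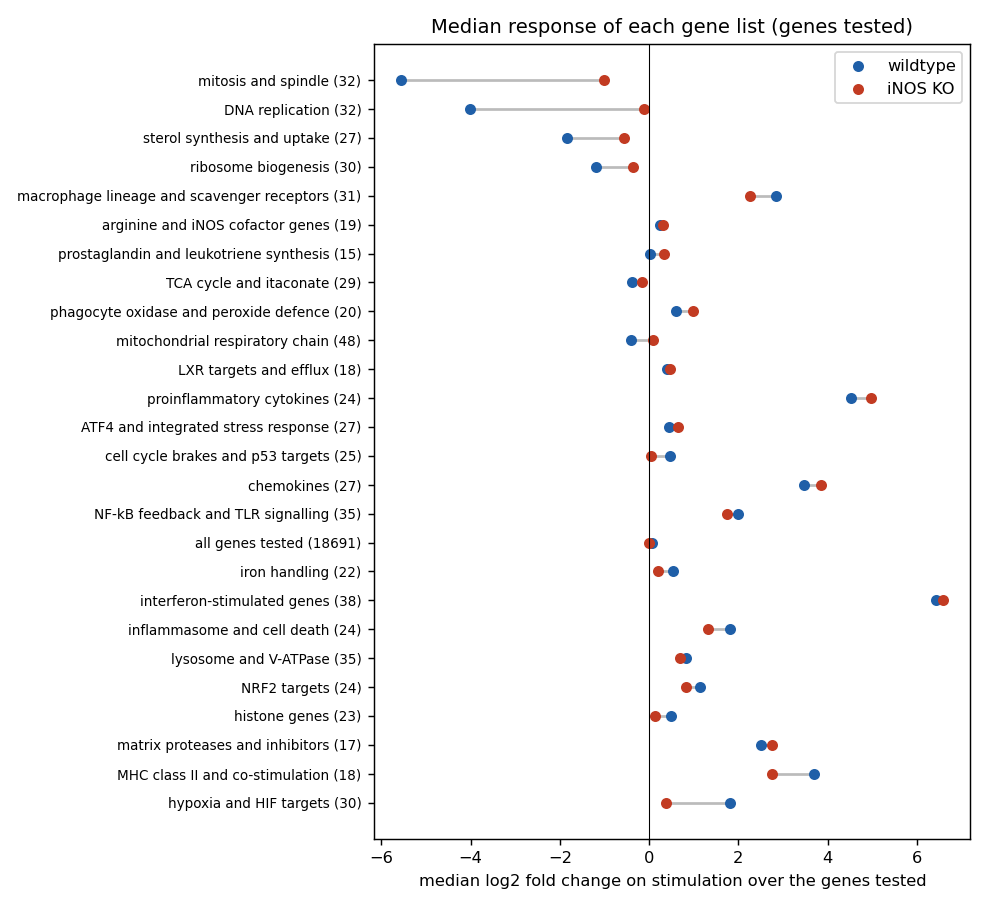
Median log2 fold change on stimulation over the tested genes of each of 25 lists and over all 18691 genes, in wildtype (blue) and iNOS KO (red) cells, ordered by the median interaction, with the number of genes tested in brackets. Mitosis (-5.55 and -1.02) and DNA replication (-4.01 and -0.12) show the widest gaps at the top, and the hypoxia list (1.82 and 0.37) lies at the bottom.

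An interaction can reflect the resting levels, which share libraries with both responses. At rest 1117 genes differed between the genotypes (5.98%), of which 310 passed the limit of 1 (1.66%). The share was 5.19% of the genes repressed only with iNOS, 10.3% of those induced only with iNOS, 10.1% of those repressed only without and 28.1% of those induced only without. In the last class 58 of 65 were lower in the KO at rest, beside 765 of 1117 over all genes. A low resting level itself enlarges the KO increase that defines that class. The stimulated groups alone differed in 1461 of the 1485 genes repressed only with iNOS and in 759 of the 824 induced only with iNOS. Over all genes they differed in 9040 of 18691. The interaction that defines the classes uses the same stimulated libraries, so these class counts follow in large part from the rule. With genes called at rest left out, 5950 interactions remained, and the classes in the same order held 1408, 739, 250 and 166 genes.

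The classes were then read in RAW264.7 wildtype cells. Since the source of the libraries labelled BMDM is open, both experiments may hold the same line, and no comparison between cell types is made. The classes did not use the RAW264.7 libraries. The wildtype ones were 2 libraries at rest and 2 stimulated for 48 h with LPS as above and IFNγ at 10 ng/mL. The fit also held Akr1a1 KO libraries, 2 at rest and 2 stimulated, which entered the estimate of the spread. The title of resting wildtype replicate B calls it stimulated, against its library name and treatment label, which were followed here. The title of resting Akr1a1 KO replicate B does so too, and its library name was followed. Nos2 rose there by 8.12 on the log2 scale. Over the 17398 genes tested in both experiments 12.9% were called higher and 13.7% lower. Of the genes repressed only with iNOS, 891 of 1463 were called lower (60.9%) and 8 higher, and of those induced only with iNOS, 294 of 806 were called higher (36.5%) and 10 lower. Of the genes induced only without iNOS, 60 of 220 were called higher (27.3%) and 15 lower, and of those repressed only without iNOS, 52 of 273 were called lower (19.0%) and 17 higher. Shared genes were called in their direction in 1097 of 1787 (61.4%) and 533 of 902 (59.1%). Of the replication list 31 of 32 genes and of the mitosis list all 32 were called lower, while 7 of 30 hypoxia genes were called higher, among them Vegfa (2.92) and Pfkfb3 (2.31). Without resting wildtype replicate B, 804 of the genes repressed only with iNOS were called lower and 256 of those induced only with iNOS higher. Bnip3 and Klf4 had log2 responses of 0.85 and 1.63 there that were not called.

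**Figure D5:**
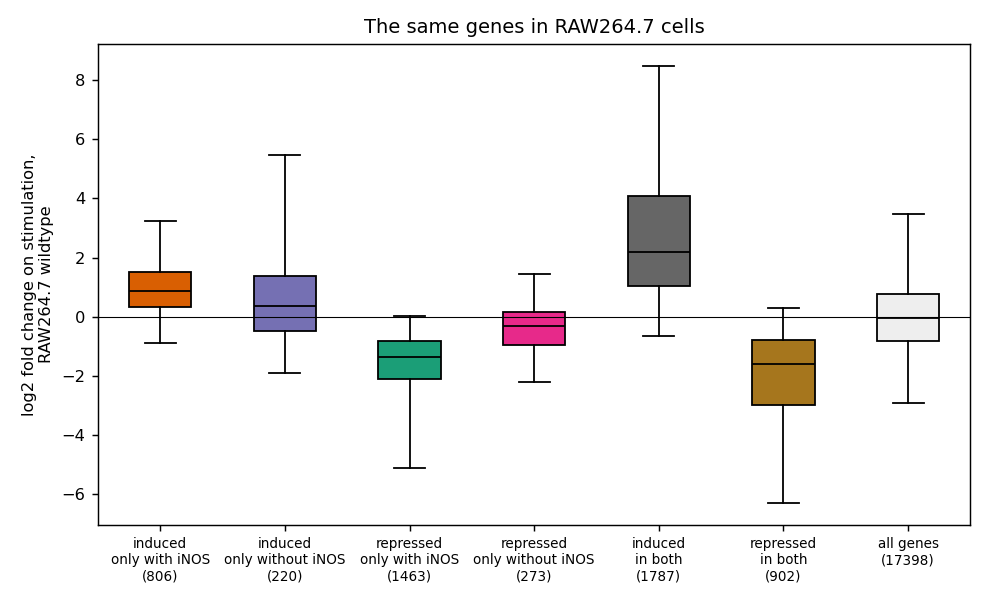
Log2 fold change on stimulation in RAW264.7 wildtype cells for the genes of each class and for all 17398 genes tested in both experiments, with the number of genes in brackets, boxes from the first to the third quartile, a line at the median and whiskers from the 5th to the 95th percentile. The median was -1.35 for genes repressed only with iNOS, 0.89 for genes induced only with iNOS and -0.04 for all genes.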

How the data were processed

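Total RNA was enriched for poly-A transcripts and sequenced by a service provider. According to the methods of the study, the authors filtered the reads for quality and adaptors, mapped those kept with STAR and summed them per gene, and the processing notes in the labels name mm10. The deposited values are these whole-number counts, without normalization, for 56748 genes. The counting tool, its strand setting and the annotation are not given in the sources used here, and since the table places Nos2 elsewhere than GRCm38.p6 does, no gene position from it is printed.

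Genes with at least 10 counts over the 12 libraries were tested (18691, of which 13208 are protein-coding). In edgeR 4.0.16 (R 4.3.3), TMM scaling was applied and 1 mean per group was fitted. Quasi-likelihood F tests (2-sided, Benjamini-Hochberg adjustment over all genes tested) gave the response of each genotype, their difference (the interaction) and the genotypes at rest. Calls required an adjusted p under 0.05 throughout, and for a response also a log2 fold change beyond 1 in either direction. Standard errors were taken from the F statistic. CPM values use TMM library sizes. Where every library of a group held 3 counts or fewer, the fold is a lower bound against 3 counts per library. The 8 RAW264.7 libraries (4 groups of 2, wildtype and Akr1a1 KO at rest and stimulated, 19569 genes tested) were fitted together, apart from the others. The Akr1a1 KO libraries thus share in the estimate of the spread, and only the wildtype response is reported. The procedure was tested on simulated counts.

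The genes named are Nos2, then protein-coding genes with a mean log2 CPM over 3. They are the 6 with the largest interaction in each class called in 1 genotype, whose stimulated libraries do not overlap between genotypes, up to 6 with opposite responses, the 4 with the largest shared response and the 3 with the largest interaction in each direction among genes called in both, and members of 25 gene lists where a role is described. Some genes that the rule names are not reported here. The members and lists were chosen with earlier results of these data known. Promoter sequences of GRCm38.p6 came from RefSeq. Alternatives were DESeq2 1.42.0, other scalings, filters and thresholds, a replicate block, each library left out and, chosen after seeing the data, genes called at rest left out.

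Libraries that share a replicate letter did not deviate together. Over 18 same-letter pairs of different groups the correlation of deviations from the group means lay between -0.1 and 0.1, and 0 pairs were over 0.1.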

Additional observations from a re-analysis of the deposited data

Results flagged for a closer look

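Each interaction here is a test of a difference between the genotypes in their response to stimulation, so the resting libraries enter it too. The interaction was called in 6617 genes by edgeR's quasi-likelihood test. In 35 genes both responses were called and ran in opposite directions, and 5 of these are protein-coding with a mean log2 CPM over 3. The interaction on the log2 scale was 3.09 for Cenpw, 2.58 for Mtfr2, 2.42 for Slfn9, 2.10 for Lyz1 and -2.18 for Hyal1. Groups held 3 libraries, so single libraries were not tested as outliers. For Slfn9 the stimulated iNOS KO libraries held 73.6, 34.0 and 78.7 CPM, and the lowest is replicate B, the library that stands apart.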

How the results depend on the processing

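The number of interactions stayed within 1.5 times under DESeq2 (6536 interactions), other scalings (6660, with 3575 higher and 3085 lower without iNOS, and 6720, with 3339 and 3381), filterByExpr, no filter and the block on replicate letter (6542, with 1468 genes repressed and 804 induced only with iNOS). The block on the letter changed no count by over 1.5 times. DESeq2 gave no adjusted p for 3263 genes. The other scalings moved the median interaction of all genes by -0.03 and -0.08. Genes called in 1 genotype with no called difference fell to 873 with filterByExpr and 1066 among protein-coding genes. With an interaction over 1, 2809 remained (1745 higher and 1064 lower without iNOS). At a limit of 0.5 the counts were 355 induced and 533 repressed only without iNOS, 2180 repressed in both and 176 opposite. At a limit of 2 they were 373 induced and 706 repressed only with iNOS, 141 and 66 only without, 1266 and 231 in both and 8 opposite. Requiring the other genotype within 0.5 of 0 left 380 and 861 only with and 97 and 165 only without iNOS. At rest 1117 genes differed with no fold limit. Leaving out each library in turn gave 5965 to 7473 interactions and moved no class count by over 1.5 times. Small counts in lists did move. Chemokine genes with a higher response without iNOS numbered 5 in place of 8 without any one of the 3 resting wildtype libraries or replicate A of the resting iNOS KO group. Inflammasome genes with a lower response numbered 5 in place of 9 without resting wildtype replicate C or stimulated wildtype replicate B or C, and LXR targets 3 in place of 6 without resting wildtype A, stimulated wildtype B or resting iNOS KO B. ATF4 genes with a lower response numbered 10 in place of 6 without stimulated iNOS KO replicate B. NRF2 targets with a higher response numbered 3 in place of 5 without resting wildtype C, and MHC class II genes 1 in place of 3 without resting iNOS KO A. Histone genes with a higher response numbered 3 in place of 6 without stimulated wildtype C or resting iNOS KO C, and those with a lower response 4 in place of 7 without the latter. The 2 hypoxia genes with a higher response became 1 under DESeq2 and other scalings and without any one of 5 libraries, and the 2 prostaglandin genes with a lower response became 1 without any one of 4. Cytokine genes with a lower response numbered 5 in place of 3 with filterByExpr, and NF-kB and TLR genes 10 in place of 6 with no filter. Among the 49 genes named by rule from the classes, the interaction of Ank was called without 1 library, and 3 that were not called changed sign, those of Gbp4 (-0.19 to 2.09), Nfatc1 (-0.10 to 0.02) and Iigp1 (-2.66 to 0.83). A difference that was not called is not shown to be absent, and depth limits genes near the floor of 3 counts.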

Other observations

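Lists not described in the report gave the following counts, beside 20.0% of all genes with a higher and 15.4% with a lower response without iNOS. Of 22 genes of iron handling, 5 had a higher and 6 a lower response without iNOS. Slc40a1, the iron exporter ferroportin, and Tfrc, the transferrin receptor, had interactions of -1.32 and -0.94 (both called), while Lcn2, which binds bacterial siderophores, rose from 0.249, 0.278 and 0.0587 to 40.2, 47.5 and 48.7 CPM in wildtype and from 0.0481, 0.199 and 0.0488 to 347, 347 and 351 CPM in iNOS KO libraries (3.91 ± 0.66, adjusted p = 0.000163). Of 18 LXR targets and efflux genes, 8 were higher and 6 lower in response without iNOS. Of 15 genes of prostaglandin and leukotriene synthesis, 6 were higher and 2 lower, and Ptgs2, the inducible cyclooxygenase, rose in both genotypes by 7.16 and 6.54.

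Of 23 histone and chromatin genes, 6 had a higher and 7 a lower response without iNOS. Variant histone H2az1 was repressed only with iNOS, at 474, 463 and 505 and then 86.6, 83.5 and 84.6 CPM in wildtype and at 412, 435 and 418 and then 296, 326 and 304 CPM in the KO. H2bc11, a replication-type histone gene, was induced only with iNOS, at least 21.7-fold in wildtype, from at most 0.150 CPM to 4.36, 2.50 and 3.81 CPM, beside 0.321, 0.216 and 0.119 CPM in stimulated iNOS KO libraries. Most replication-dependent histone transcripts lack a poly-A tail, so their counts in poly-A enriched libraries cover only part of them.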
